A study of Mus musculus with 6 samples.

Results

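The 6 genes described here, *Nos2*, *Slc7a2*, *Ass1*, *Odc1*, *Ido1* and *Il4i1*, encode the enzymes and the transporter through which suppressive myeloid cells take up and use arginine, make polyamines and degrade tryptophan and other aromatic amino acids. They were selected on the values of the wild-type (WT) and *Tgm2* knockout tumors themselves, as a list of such genes drawn up with that comparison already known, so the difference between the groups is given for them as a description, with no p-value, and the number called is given only beside the share of all genes. All 6 were found among the 20076 genes of the deposited table, and all 6 were among the 19667 genes that were tested, those reaching 1 normalized count in 3 or more tumors; each of the 6 reached it in all 6 tumors.

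The data cover 3 primary tumors from WT and 3 from *Tgm2* knockout mice, collected 6 weeks after bilateral injection of ID8 Trp53-/- Brca1-/- cells under the ovarian bursa, and polyA-enriched RNA of the whole tumor was sequenced. The WT mice were C57BL/6, and the study's methods do not plainly give the background strain of the knockout mice. All were 6 to 10 weeks of age. The knockout mice lacked *Tgm2* in the host while the injected cells were the same mouse ovarian cancer line in both groups, with *Trp53* and *Brca1* inactivated. The tumors are named WT_1 to WT_3 and KO_1 to KO_3 after their titles, which do not say whether each came from a different mouse, so any p-value below measures the spread between these 6 tumors. Values are normalized counts, that is, estimated reads scaled for sequencing depth; they summed to between 32316613 and 37717165 per tumor, and 1 read was worth between 0.944 and 1.08 normalized counts.

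*Tgm2* (chr2:158116402-158146436 of GRCm38, minus strand) was at 14978, 12155 and 13180 normalized counts in WT_1 to WT_3 and at 5853, 6071 and 8157 in KO_1 to KO_3. Each of the knockout tumors was below the lowest WT tumor, with a log2 fold change of -1.02 (limma adjusted p = 0.391). Transcript remained in all of them, and RNA of the injected cells was sequenced in both groups. The labels give the cell type as cancer cells, whereas the RNA held transcripts of several cell types. *Wt1*, the most abundant gene of an epithelial and ID8 cell list, was at 13131 to 20641 normalized counts, and *Ptprc*, the CD45 gene of leukocytes, at 1583 to 3173.

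Arginine is the substrate of the inducible nitric oxide synthase, which makes nitric oxide and citrulline from it. *Nos2*, the gene of that synthase, is induced in macrophages by interferon-gamma and microbial products and marks inflammatory macrophages, while interleukin-4 and interleukin-13 turn macrophages to an alternative, suppressive state. Ornithine feeds polyamine synthesis through ornithine decarboxylase, the product of *Odc1*, and tryptophan and phenylalanine are degraded by the products of *Ido1* and *Il4i1*, which also limit T cells.

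*Nos2* (ENSMUSG00000020826, chr11:78920787-78960254, plus strand, overlapping no other annotated gene) had the largest difference between the groups of the 6 genes described here. Since it has a close relative in *Nos3*, the endothelial nitric oxide synthase, the 90-base stretches in which the coding sequences of the pair are most alike are shown, from GENCODE M21 transcripts on GRCm38, 5′ to 3′, with capitals at the bases that differ. The *Nos2* stretch covers coding bases 558 to 647 and the *Nos3* stretch coding bases 525 to 614, each across 2 exons, at chr11:78935460-78936437 and chr5:24367589-24368853, both on the plus strand.
Nos2: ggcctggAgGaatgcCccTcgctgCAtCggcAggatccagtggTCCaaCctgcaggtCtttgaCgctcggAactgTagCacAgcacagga
Nos3: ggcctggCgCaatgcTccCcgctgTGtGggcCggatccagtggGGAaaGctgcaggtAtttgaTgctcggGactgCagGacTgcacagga
Even here 72 of 90 bases were identical (80.0%) and the longest identical run was 11 bases. Across the whole transcripts, 0 of the 4377 words of 31 bases in *Nos2* occurred among the 4130 of *Nos3*, so reads of the pair were not shared at this word length.

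Per kilobase of the longest coding transcript, the 6 genes covered a wide range, from a mean over the 6 tumors of 3585 normalized counts per kilobase for *Odc1* to 3.21 for *Ido1*. *Ass1* came second at 636, followed by *Slc7a2* at 567. *Il4i1* and *Nos2* formed a lower tier at 67.7 and 46.7. Single tumors of *Ass1* and *Slc7a2* overlapped (327 to 870 and 379 to 713 per kilobase), as did those of *Il4i1* and *Nos2* (35.3 to 120 and 11.0 to 141), so the order within these tiers was not separated beyond the spread. *Odc1* (2659 to 4775) was above every value of the other genes, and *Ido1* (0.611 to 8.40) lay below the lowest value of every other gene. These levels, plotted for each tumor and gene, show *Nos2* and *Ido1* as the genes with the widest spread.

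**Figure D1:**
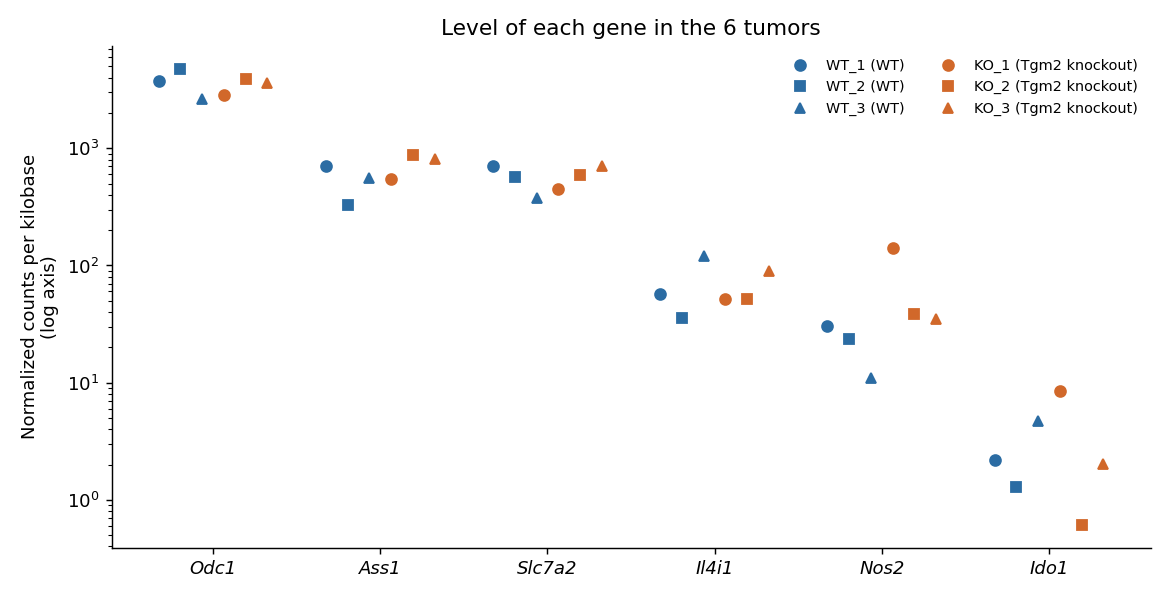
Normalized counts per kilobase of the longest coding transcript (log axis) of the 6 genes in the 6 tumors, 1 point per tumor, WT in blue and *Tgm2* knockout in orange. *Nos2* spans 12.9 times between the lowest and the highest tumor, with KO_1 on top, while *Odc1* and *Slc7a2* vary by 1.80 and 1.88 times.

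*Nos2* was higher in the *Tgm2* knockout tumors, and the other 5 genes overlapped between the groups. *Nos2*, the inducible nitric oxide synthase, was at 129, 98.1 and 46.1 normalized counts in WT_1 to WT_3 and at 593, 163 and 146 in KO_1 to KO_3. The means were 90.9 ± 41.7 and 300.3 ± 253 (SD, n = 3 per group), and all knockout tumors exceeded the highest WT tumor. KO_1 was 3.64 times above the next tumor, and WT_3 was the lowest. The log2 fold change of knockout over WT was 1.52 (standard error 0.64) on the log2(value + 1) scale, a 2.87-fold higher level. It was 0.87 without KO_1 and 0.45 (standard error 0.44) without WT_3 and KO_1 together. It was positive under all 19 settings, but many of these could not change its sign. The filter, block and variance trend settings leave it at 1.52. Since all knockout tumors exceeded all WT tumors, leaving tumors out keeps it positive. The highest value, 2.89, came with the mean of adipocyte markers as a covariate. That mean did not overlap between the groups, so fits with it, here and below, cannot well separate it from the group. In bulk RNA, more cells that express a gene and more RNA per cell cannot be told apart.

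The genes of arginine supply did not separate the groups. *Slc7a2* (chr8:40862396-40922308, with a lincRNA gene on the opposite strand), the cationic amino acid transporter that brings arginine into macrophages, was at 5636, 4473 and 2997 normalized counts in WT_1 to WT_3 and at 3521, 4707 and 5592 in KO_1 to KO_3. Its log2 fold change was 0.10 (standard error 0.28), with WT_3 the lowest of the 6. Whether the counting used strand is not given in the sources used here. *Ass1* (chr2:31470207-31520672), argininosuccinate synthase, which starts the return of citrulline to arginine, was at 1188, 554 and 947 in WT_1 to WT_3 and at 932, 1476 and 1379 in KO_1 to KO_3. KO_2 and KO_3 were the highest and WT_2 the lowest, while KO_1 lay among the WT tumors. The log2 fold change of *Ass1* was 0.53 (standard error 0.32) and was positive under all 19 settings, between 0.22 and 0.81. The filter, block and variance trend settings cannot move it from 0.53.

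*Odc1* (chr12:17544794-17551505), whose product makes putrescine from ornithine, was at 8263, 10544 and 5870 normalized counts in WT_1 to WT_3 and at 6311, 8562 and 7947 in KO_1 to KO_3. The highest and the lowest tumor were both WT, and the log2 fold change was -0.08 (standard error 0.26). With the adipocyte marker mean as a covariate it was -0.86, and under that setting *Slc7a2* turned to -0.51.

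*Ido1* (chr8:24584136-24597009), indoleamine 2,3-dioxygenase, which opens the kynurenine pathway of tryptophan, was close to the limit of detection. It was at 3.65, 2.15 and 7.83 normalized counts in WT_1 to WT_3 and at 13.9, 1.01 and 3.34 in KO_1 to KO_3. WT_2 and KO_2 were below the level of 3 reads, which was 2.83 to 3.25 normalized counts, and a difference between the groups was not detectable at this depth (log2 fold change 0.00, standard error 0.92). It was -0.77 without KO_1 and 3.26 (standard error 1.32) with the adipocyte marker mean as a covariate. *Il4i1* (chr7:44816387-44840809), a secreted oxidase of phenylalanine and tryptophan, was at 129, 80.3 and 273 in WT_1 to WT_3 and at 119, 118 and 205 in KO_1 to KO_3. The third tumor of each group was the highest, and the log2 fold change was 0.01 (standard error 0.52). *Il4i1* overlaps *Nup62* on the same strand and shares 67 words of 31 bases with it, 1.61% of its own, so part of its value is uncertain.

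The plot of the differences sets each estimate beside the 6 estimates that leave out 1 tumor. With limma, 0 of the 6 genes were past an adjusted p of 0.05 with an absolute log2 fold change above 1, against 20 of all 19667 genes (0.102%), all 20 of them higher in the knockout tumors. At an unadjusted p below 0.05 with the same fold limit, *Nos2* was called, 1 of 6, against 4.05% of all genes. The knockout tumors all exceeded the WT tumors for 1 of the 6 genes, *Nos2*, and were all under them for 0, against 5.18% and 5.33% of all genes. The list was made from this comparison, so nothing is read from these counts.

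**Figure D2:**
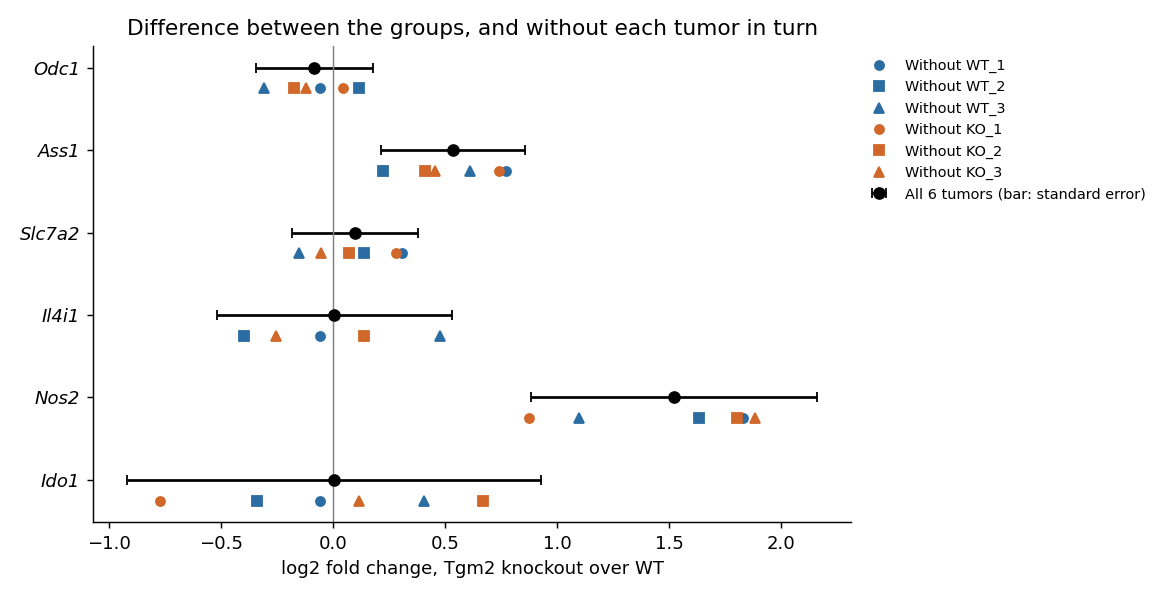
Log2 fold change of *Tgm2* knockout over WT for the 6 genes, with the standard error as a bar for all 6 tumors (black) and the estimates without each tumor in turn below it. *Nos2* and *Ass1* stay right of 0 in all of them, *Nos2* at its lowest, 0.87, without KO_1, while *Slc7a2*, *Odc1*, *Ido1* and *Il4i1* cross 0.

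Macrophages and neutrophils are the myeloid cells in which these enzymes are best known, and markers of each, and of hepatocytes, which hold the urea cycle, were compared across the tumors. Of 13 macrophage markers, all 13 were tested and none was listed at 0; the most abundant was *Lyz2*, lysozyme, and the summed level was 93038, 70156 and 48190 normalized counts in WT_1 to WT_3 and 45017, 140420 and 100380 in KO_1 to KO_3. KO_1, the highest for *Nos2*, and WT_3, the highest for *Il4i1*, had the lowest sums, and of the 13 markers 7 were lowest in WT_3 and 5 in KO_1. The median log2 fold change of the list was 0.39, against -0.03 for all genes, with 1 of 13 higher at an unadjusted p below 0.05 (*Mertk*), against 3.40% of all genes, and 0 lower, against 2.38%.

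Ratios within a tumor do not depend on the scaling between tumors. Relative to the mean log2 of these macrophage markers, *Nos2* was at -4.87, -4.76 and -5.53 in WT_1 to WT_3 and at -1.72, -4.97 and -4.72 in KO_1 to KO_3. It thus stood out in KO_1 only, and the groups overlapped. *Il4i1* relative to the same markers was at -4.86, -5.05 and -2.99 in WT_1 to WT_3 and at -4.03, -5.43 and -4.23 in KO_1 to KO_3, with KO_2 the lowest and WT_3 the highest. With the macrophage mean as a covariate the log2 fold change of *Nos2* was 1.71. The ratios of the other 4 genes to the macrophage markers also overlapped between the groups. The ratio of *Slc7a2* was between -0.13 and 0.85 on the log2 scale. These ratios were not scaled for transcript length, so their sizes were not compared between genes. The log2 ratio of *Ass1* to *Asl*, the gene of the next enzyme of arginine synthesis, was between -0.02 and 0.30 in 5 tumors and -1.50 in WT_2.

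**Figure D3:**
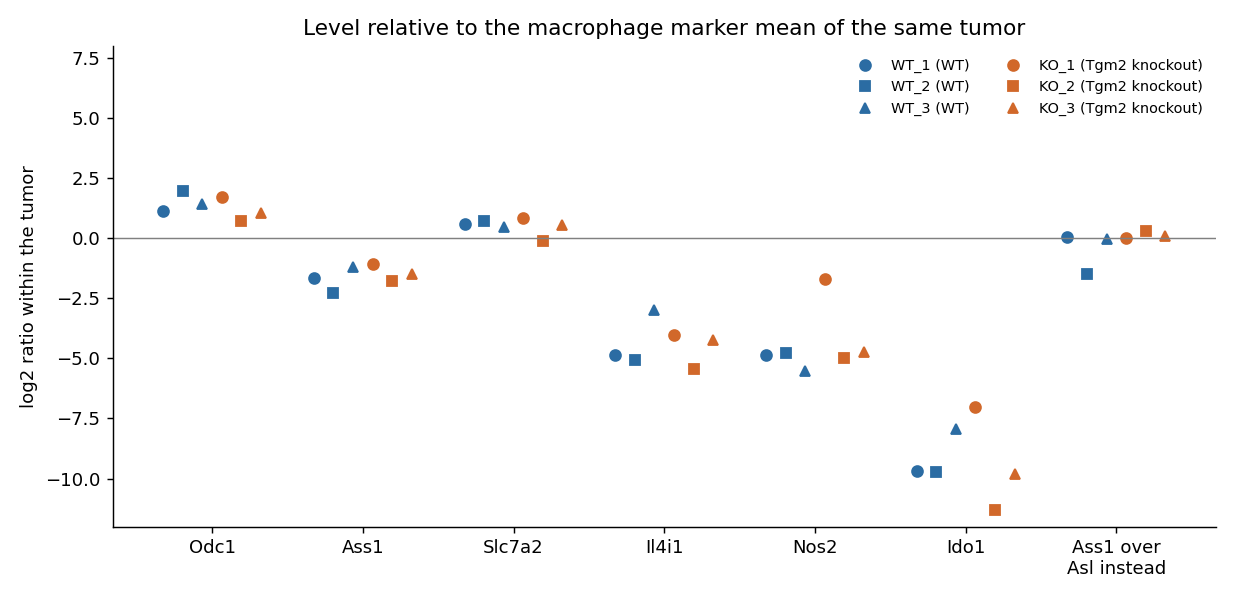
Log2 ratio of each of the 6 genes to the mean log2 of 13 macrophage markers of the same tumor, and of *Ass1* to *Asl*, 1 point per tumor. WT and knockout tumors overlap in every ratio; *Nos2* stands out in KO_1 at -1.72, *Il4i1* is highest in WT_3 at -2.99, and *Ass1* over *Asl* is lowest in WT_2 at -1.50.

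Of 12 neutrophil markers, *Ly6g*, *Elane*, *Camp* and *Ngp* were each listed at 0 in at least 1 tumor, and the median log2 fold change was -0.27, with 1 of 12 (*Csf3r*) higher and 0 lower at an unadjusted p below 0.05. The most abundant was *Ltf*, lactotransferrin, which glandular epithelium also makes; it was at 227, 3967 and 52176 normalized counts in WT_1 to WT_3 and at 3718, 3910 and 31.6 in KO_1 to KO_3. *Ly6g*, which defines neutrophils in mice, was at no more than 38.6. Of 10 hepatocyte markers, 7 were in the table, *Alb*, *Serpina1a* and *Fgb* were listed at 0 in at least 1 tumor, and the summed level was 107 to 342 normalized counts, led by *Apoa1*. Of 8 gut epithelium markers, 5 were in the table, *Fabp2* was listed at 0 in at least 1 tumor, 1 (*Muc2*) was lower at an unadjusted p below 0.05, and the sum was highest in WT_3 at 663, led by *Lgals4*.

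WT_3 and KO_1, the highest tumors for *Il4i1* and *Nos2*, also stood apart in other transcripts. Of 12993 genes with a mean of at least 100, 154 in WT_3 (1.19%) and 54 in KO_1 were more than 4 times above the next highest tumor, against 2 to 18 in each of the other 4. In WT_3 these included epithelial genes. *Epcam*, an epithelial adhesion gene, was at 90.5, 959 and 8047 normalized counts in WT_1 to WT_3 and at 1307, 1063 and 201 in KO_1 to KO_3. *Pax8*, a transcription factor of the oviduct and Müllerian epithelium, was at 40.9, 169 and 1905 in WT_1 to WT_3 and at 437, 380 and 122 in KO_1 to KO_3. *Cdh1*, E-cadherin, was likewise highest in WT_3 at 6588, against 224 to 1876 elsewhere. The full list of 11 epithelial genes, summing to 61847 to 85887 and led by *Wt1*, had a median log2 fold change of -0.24 with 0 called in either direction. WT_3 was the highest tumor for 6 of the 11. *Wt1* (13131) and *Upk3b* (2805) were lowest in WT_3, and *Krt8* (21948) and *Krt19* (18236) were highest in WT_2. With the mean of *Epcam*, *Cdh1*, *Pax8* and *Ltf* as a covariate, *Il4i1* differed by 0.05 and *Nos2* by 1.47.

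Most transcripts of steroid-producing ovarian cells were highest in KO_1, 9 of 10 markers. *Cyp11a1*, which starts steroid synthesis from cholesterol, was at 8648, 208 and 158 normalized counts in WT_1 to WT_3 and at 22480, 209 and 178 in KO_1 to KO_3. *Amh*, anti-Müllerian hormone of granulosa cells, was at 302, 136 and 129 in WT_1 to WT_3 and at 2766, 155 and 216 in KO_1 to KO_3. *Star*, the cholesterol carrier of steroidogenic mitochondria and the most abundant of the list, was the exception, at 5987, 8970 and 4223 in WT_1 to WT_3 and at 5340, 5450 and 7639 in KO_1 to KO_3. The 10 markers, with *Cyp19a1* and *Fshr* listed at 0 in at least 1 tumor, summed to 23605, 15029 and 7685 in WT_1 to WT_3 and to 70515, 11417 and 12474 in KO_1 to KO_3. None of the 9 that were tested passed an unadjusted p of 0.05, and with their mean as a covariate *Nos2* differed by 1.19. The side by side plot shows *Il4i1* and *Nos2* beside genes of these lists that were picked for being highest in WT_3 or in KO_1.

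**Figure D4:**
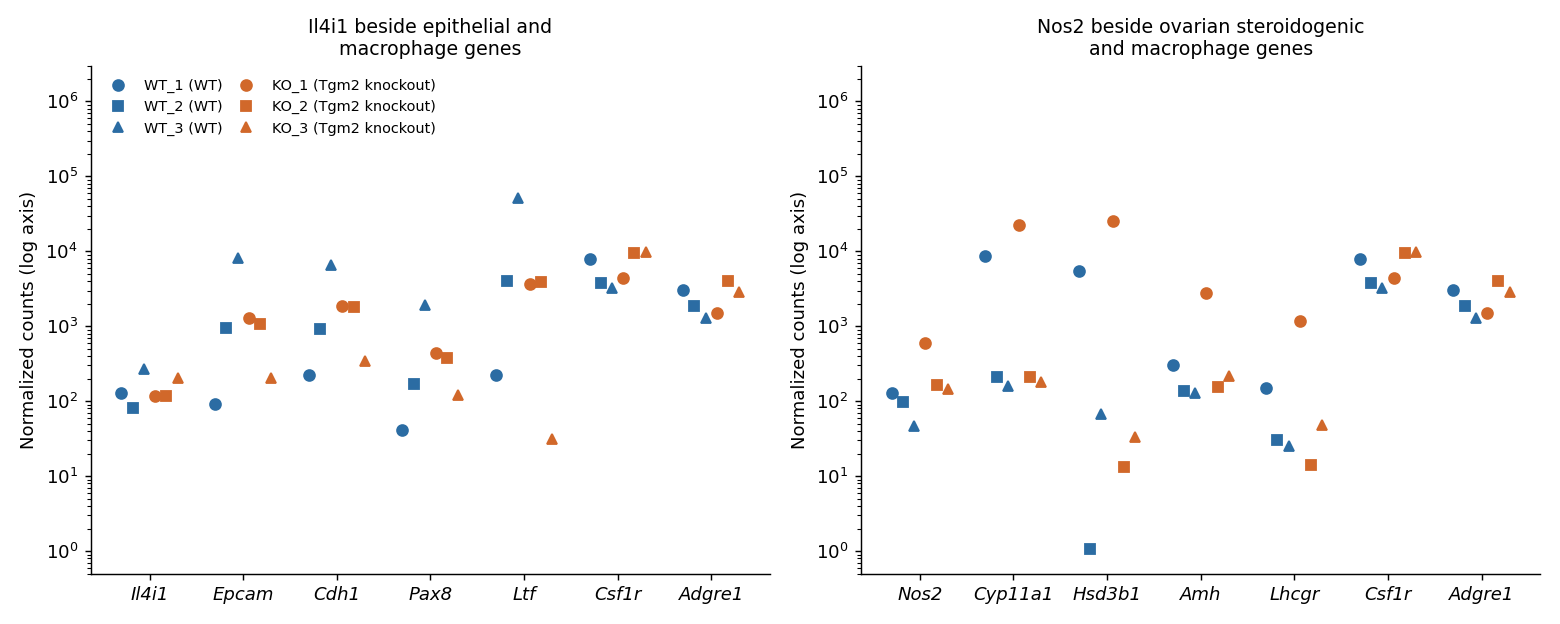
Normalized counts (log axis) of *Il4i1* beside epithelial genes and *Ltf* (left) and of *Nos2* beside ovarian steroidogenic genes (right), both picked after their values were seen, with the macrophage genes *Csf1r* and *Adgre1* in both, 1 point per tumor. WT_3 is highest for *Il4i1*, *Epcam*, *Cdh1*, *Pax8* and *Ltf* and lowest for *Csf1r* and *Adgre1*, and KO_1 is highest for *Nos2*, *Cyp11a1*, *Hsd3b1*, *Amh* and *Lhcgr*.

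Markers of other cell types also differed between the groups. All 10 adipocyte markers, led by *Cfd*, were higher in the knockout tumors at an unadjusted p below 0.05, with a median log2 fold change of 2.08 and 1, *Lep*, past an adjusted p of 0.05 in limma; their sums were 12826, 26749 and 12293 in WT_1 to WT_3 and 22382, 124040 and 56009 in KO_1 to KO_3. Of 9 B cell and plasma cell markers, led by *Jchain*, 8 were higher and 3, *Jchain*, *Mzb1* and *Cd79a*, were past an adjusted p of 0.05 in limma (median 2.24). Of 10 dendritic cell markers, led by *Fscn1*, 5 were higher (*Flt3*, *Xcr1*, *Clec9a*, *Cd209a* and *Ccl22*, median 1.01), and of 12 T and NK cell markers, led by *Trac*, 2 were higher (*Cd4* and *Cd3g*, median 0.92). In the leukocyte, fibroblast and endothelial lists, led by *Laptm5*, *Col3a1* and *Pecam1*, 1 of 10 (*Cd52*), 2 of 10 (*Lum* and *Pdgfra*) and 1 of 8 (*Cdh5*) were higher, and the medians were 0.43, 0.42 and 0.44. None of the markers in these 7 lists was lower at that limit. With the adipocyte mean as a covariate, *Il4i1* differed by 0.71. The part of the other cell types of this paragraph in the values of the 6 genes was not tested.

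The wider pathways around the 6 genes were compared through 11 lists, with 137 genes tested. At an unadjusted p below 0.05, 11 of the 137 were higher in the knockout tumors (8.03%) and 2 were lower (1.46%), beside the 3.40% and 2.38% of all genes given above. None passed adjustment over all genes (smallest limma adjusted p = 0.560), and the median log2 fold change was 0.04. Of the 79 genes in the 7 lists of amino acid and polyamine metabolism, 2 were higher and 0 were lower, with a median of -0.02. The plot of related genes by role shows these metabolic lists centred on 0.

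For arginine supply and the urea cycle, 0 of 9 tested genes passed in either direction (median -0.09), and *Otc* and *Cps1* had no row in the table. *Slc7a6*, an arginine exchanger, was at 2949, 4684 and 2750 normalized counts in WT_1 to WT_3 and at 2403, 2553 and 2479 in KO_1 to KO_3, below all WT tumors, with a log2 fold change of -0.44 (limma adjusted p = 0.889). *Slc7a1*, the main arginine transporter of most cells, had a log2 fold change of -0.15. For nitric oxide and methylarginine metabolism, 0 of 12 passed (median -0.03). *Nos3* was at 334, 174 and 271 in WT_1 to WT_3 and at 325, 359 and 341 in KO_1 to KO_3, with overlap (log2 fold change 0.44, limma adjusted p = 0.896), and *Qdpr* and *Spr*, which maintain the cofactor of nitric oxide synthase, had log2 fold changes of 0.19 and -0.09. For ornithine, proline and creatine, 0 of 11 passed (median 0.18), with 0.18 for *Oat*, ornithine aminotransferase, and 0.18 for *Gamt*, which makes creatine.

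Of 20 polyamine genes, 0 passed (median -0.07). *Eif5a*, the translation factor modified with a polyamine, was at 27327, 36769 and 18177 normalized counts in WT_1 to WT_3 and at 19508, 28946 and 25279 in KO_1 to KO_3, and *Oaz1*, the antizyme that turns off ornithine decarboxylase, had a log2 fold change of -0.10. *Amd1* and *Amd2* share 2899 words of 31 bases, 81.9% of those of *Amd1*, so their separate values are uncertain. Of 7 amino acid transport genes, 0 passed (median -0.02), with -0.02 for *Slc38a2* and -0.05 for *Slc3a2*. Of 6 tested genes of the aryl hydrocarbon receptor, which senses kynurenine, 0 passed (median 0.00), with 0.10 for its target *Cyp1b1* and 0.34 for *Tiparp*.

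In tryptophan and kynurenine metabolism, 2 of 14 genes were higher and 0 were lower (median 0.05). *Kynu*, kynureninase, was at 49.1, 41.9 and 47.3 normalized counts in WT_1 to WT_3 and at 82.8, 104 and 174 in KO_1 to KO_3. All knockout tumors exceeded the highest WT tumor (log2 fold change 1.30, standard error 0.48, limma adjusted p = 0.801), and the unadjusted call was kept in 13 of 19 settings, being lost among others without WT_2 (log2 fold change 1.23), without KO_2 (1.37) and without KO_3 (0.997). *Maob*, a monoamine oxidase, was at 150, 210 and 103 in WT_1 to WT_3 and at 315, 418 and 400 in KO_1 to KO_3, also without overlap (log2 fold change 1.33, limma adjusted p = 0.644). With the adipocyte mean as a covariate *Maob* was at 0.50, and 0 of the 14 genes were higher. *Wars1*, tryptophanyl-tRNA synthetase, was at 2157, 1562 and 1574 in WT_1 to WT_3 and at 2332, 2189 and 2825 in KO_1 to KO_3, with a log2 fold change of 0.48 (limma adjusted p = 0.866). *Maoa* had a log2 fold change of -0.05, and *Ido2* and *Aadat* had no row in the table.

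Among 17 genes of the signals and factors of alternative activation, such as those of interleukin-4, interleukin-10 and myeloid growth factors, 1 was higher and 0 were lower (median -0.03). It was *Pparg*, a nuclear receptor of macrophages and of adipocytes, at 142, 131 and 157 normalized counts in WT_1 to WT_3 and at 368, 557 and 276 in KO_1 to KO_3 (log2 fold change 1.42, standard error 0.35, limma adjusted p = 0.560). With the adipocyte mean as a covariate *Pparg* was at 1.07 with a standard error of 0.70 and lost its unadjusted call. *Il4ra*, the interleukin-4 receptor chain, and *Stat3* had log2 fold changes of -0.09 and -0.13 with overlapping groups. Among 12 genes of the signals that induce *Nos2* and *Ido1*, 1 was higher and 0 were lower (median 0.12). *Batf2*, an interferon-induced transcription factor, was at 145, 117 and 130 in WT_1 to WT_3 and at 209, 226 and 338 in KO_1 to KO_3, without overlap (log2 fold change 0.95, limma adjusted p = 0.802). The unadjusted call of *Batf2* was kept in 15 of 19 settings and lost with quantile normalization (0.84), with the adipocyte covariate (0.89), without WT_2 (0.87) and without KO_3 (0.74). The abundant genes *Rela*, a subunit of NF-kappaB, and *Jak2*, a kinase of the interferon-gamma receptor, had log2 fold changes of 0.11 and -0.13.

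Genes of alternatively activated macrophages had positive log2 fold changes for 12 of 15. This was so for 10 of 13 macrophage, 9 of 10 leukocyte and 9 of 10 dendritic cell markers, and for 5 of 12 neutrophil markers. Of the 15, 5 were higher in the knockout tumors at an unadjusted p below 0.05 and 0 were lower, against 3.40% and 2.38% of all genes. The median log2 fold change was 0.77. *Cd163*, the hemoglobin scavenger receptor, was at 121, 53.7 and 66.1 normalized counts in WT_1 to WT_3 and at 180, 420 and 315 in KO_1 to KO_3 (log2 fold change 1.91, standard error 0.48, limma adjusted p = 0.566). *Retnla*, which is induced by interleukin-4, was at 102, 49.6 and 107 in WT_1 to WT_3 and at 162, 753 and 401 in KO_1 to KO_3 (log2 fold change 2.15, standard error 0.60, limma adjusted p = 0.649). *Lyve1*, *Ccl22* and *Clec10a* had log2 fold changes of 1.31, 1.57 and 1.50, and for all 5 genes each knockout tumor exceeded the highest WT tumor. *Ccl22* was also counted among the dendritic cell markers above.

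*Mrc1*, which encodes CD206, was at 1956, 1283 and 992 normalized counts in WT_1 to WT_3 and at 1298, 4050 and 2341 in KO_1 to KO_3, so the groups overlapped (log2 fold change 0.77, limma adjusted p = 0.889). The log2 fold change of *Mrc1* was 1.18 without KO_1, and it turned to -0.78 (standard error 0.58) with the adipocyte mean as a covariate. *Il1rn*, the most abundant gene of the list, had a log2 fold change of 0.19. With the adipocyte mean as a covariate, which did not overlap between the groups, 0 of the 15 genes were higher and 3 were lower. Of the 5 genes called without it, *Clec10a* turned to -0.11, while *Lyve1* (1.01, standard error 0.66), *Cd163* (1.05, 0.93), *Ccl22* (0.93, 0.88) and *Retnla* (0.70, 1.10) stayed positive with larger standard errors. Without KO_1, 8 of 15 were higher.

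**Figure D5:**
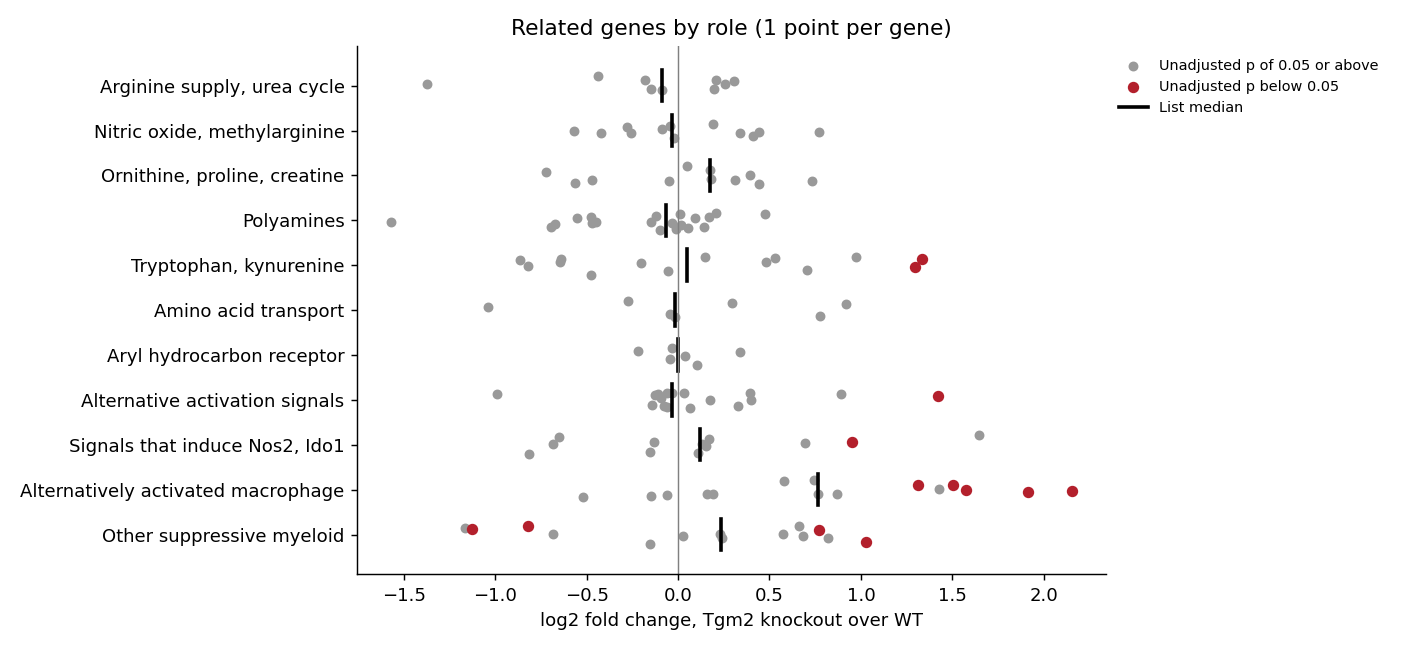
Log2 fold change of *Tgm2* knockout over WT for the 137 related genes, 1 point per gene in rows by role, with unadjusted p below 0.05 in red and the list median as a black bar. The medians of the metabolic rows lie between -0.09 and 0.18, and that of the alternatively activated macrophage row is at 0.77.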

How the data were processed

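Per the submitters' processing notes and the study's methods, the authors quantified paired reads with kallisto 0.46.2 (build GRCm38), summed transcripts to genes, dropped lowly expressed genes and scaled by DESeq2 size factors. The deposited signal is thus in normalized counts, although the table is labelled TPM; 0 columns belonged to other samples. The tests had been planned for TPM. Whole reads were recovered (within 0.1 reads) for 95.3% to 99.2% of low values of 4097 genes with 1 transcript, but for only 43.5% to 50.6% of those of 14940 genes with several, so no count model was fitted. Steps between low values correspond to 33.4M to 36.9M reads per tumor; 3 reads were taken as the limit of detection, covering counting error only.

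Values were compared as log2(value + 1) with limma 3.58.1 (R 4.3.3), variance trend, no covariate, two-sided, with Benjamini-Hochberg adjustment over 19667 genes with at least 1 in at least 3 tumors; the pseudocount understates changes of low genes. Tables were made with Python 3.11.15. The model was tested on simulated data. The 6 genes, the gene lists and the tests were chosen with earlier results of these data known. Genes were named by rule: *Tgm2*, the 6 genes, the 2 most abundant and up to 6 with unadjusted p below 0.05 of each list, and the most abundant marker of each cell type with those listed at 0; *Asl*, *Nos3* and *Amd1* with *Amd2* were named for their roles, and *Ptprc*, *Mertk*, *Epcam*, *Cdh1*, *Pax8*, *Upk3b*, *Krt8*, *Krt19*, *Cyp11a1*, *Hsd3b1*, *Amh*, *Lhcgr*, *Csf1r*, *Adgre1* and other markers past a threshold after their values were seen. Of the list of 8 genes, 2 are not reported here, nor is 1 related gene. Older symbols were matched by alias. Positions and sequences come from GENCODE M21. Alternatives changed the pseudocount, filter, scaling, block, covariates, variance trend, tumor weights and tumors.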

Additional observations from a re-analysis of the deposited data

How the results depend on the processing

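Of 19 alternative settings, 3 were chosen after seeing the data: leaving out WT_3 and KO_1 together, and the epithelial and ovarian steroidogenic covariates. The log2 fold changes of *Nos2* and *Ass1* were positive in all 19, although *Ass1* overlapped between the groups. The filter, block and variance trend settings cannot move either estimate, and leaving out tumors cannot turn that of *Nos2*. The count of 19 is thus no measure of robustness. The count of genes higher past the adjusted limits, 20, was 4 without the variance trend, 0 with the adipocyte covariate, 12 without both WT_3 and KO_1, and 2 (without WT_2) to 14 without 1 tumor; the count lower, 0, was 1 without both and 0 to 1 without 1 tumor. At the unadjusted limits, 491 higher became 898 with the adipocyte covariate, and 305 lower became 173 with a filter of at least 10, 868 with the adipocyte covariate, 463 without the variance trend, and 144 (without WT_3) to 602 (without KO_1). Of the related genes, 11 higher became 3 with the adipocyte covariate, 19 without both tumors and 9 to 22 (without WT_1) without 1 tumor. The 2 lower became 9 with the adipocyte covariate, 4 with the macrophage covariate, 5 without the variance trend, 1 with the ovarian covariate, 1 without both tumors and 1 to 7 (without KO_2) without 1 tumor. With the adipocyte covariate *Clec10a* (-0.11) and *Lilrb4a* (0.069), each with an unadjusted p below 0.05 in the limma fit without it, changed direction. So did *Cfd* (-1.79), which had such a call too. *Cfd* is one of the markers averaged into that covariate, so it was adjusted in part for itself. Genes without such a call turned as well. Among them *Mrc1* (-0.78), *Cybb* (-0.39) and *Lyz2* (-1.70) became negative, and *Stat3* (0.37) and *Jak2* (0.45) became positive. The median of all genes moved from -0.03 to 0.09. The adipocyte mean did not overlap between the groups, so such a fit cannot well separate it from the group. The cause of the shifts other than that of *Cfd* was not tested. The filter of at least 10 removed *Ido1*, which rests on a few reads per tumor.

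Deviations of tumors with the same replicate number correlated at -0.20, 0.28 and -0.31, so the numbers do not pair the tumors. With the replicate number as a block, 5 genes were higher past the adjusted limits in place of 20. The log2 fold change of *Nos2* was 1.52 as before. Each number holds a tumor of each group, so a block cannot move it. Not every tumor correlated best with its own number.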

Other observations

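Of 14 other genes through which myeloid cells suppress T cells, 2 had higher and 2 had lower values in the knockout group at an unadjusted p below 0.05, with a median log2 fold change of 0.23 and 0 past adjustment in limma. *Ptges*, the terminal synthase of prostaglandin E2, was at 368, 321 and 265 normalized counts in WT_1 to WT_3 and at 782, 573 and 595 in KO_1 to KO_3, without overlap, with a log2 fold change of 1.03 (standard error 0.26, limma adjusted p = 0.577) and its unadjusted call kept in 19 of 19 settings. *Ptgs2*, the inducible cyclooxygenase, was at 509, 787 and 780 in WT_1 to WT_3 and at 308, 562 and 325 in KO_1 to KO_3, with overlap, a log2 fold change of -0.82 (limma adjusted p = 0.819) and its call kept in 12 of 19 settings. The call of *Ptgs2* was lost without WT_2 (-0.72), WT_3 (-0.72), KO_1 (-0.67) or KO_3 (-0.70), among others.

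*Lilrb4a*, an inhibitory receptor of myeloid cells, was at 543, 458 and 816 normalized counts in WT_1 to WT_3 and at 362, 186 and 287 in KO_1 to KO_3. It was highest in WT_3 and lower in all knockout tumors than in all WT tumors (log2 fold change -1.13, standard error 0.35, limma adjusted p = 0.698), and it lost this direction with the adipocyte covariate. *Entpd1*, the ectonucleotidase CD39, was at 1586, 905 and 888 in WT_1 to WT_3 and at 1668, 1999 and 1901 in KO_1 to KO_3, without overlap (log2 fold change 0.77, limma adjusted p = 0.751), and its unadjusted call was kept in 14 of 19 settings. That call of *Entpd1* was lost without WT_2 (0.64), without WT_3 (0.63), without KO_2 (0.72), without WT_3 and KO_1 together (0.70) and with the adipocyte covariate (0.60). The abundant genes *Lgals9* and *Cybb* had log2 fold changes of -0.16 and 0.66 with overlapping groups. *Cybb* gained an unadjusted call without WT_1 (0.99), without KO_1 (1.04) and without WT_3 and KO_1 together (0.79). With the adipocyte covariate *Cybb* turned to -0.39 (standard error 0.69).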
